A study of Mus musculus with 3 samples.

Results

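The 5 muscarinic acetylcholine receptor genes, Chrm1 to Chrm5, were taken by symbol from 32531 gene symbols counted in ribosome-bound RNA from the cortex of adult mice, and all 5 had counts in every library. The 3 libraries formed a single group, immunopurified from whole cortex of mice that carry the Htr3a-Cre driver (NO176) together with the reporter Rosa26-LSL-EGFP/Rpl10a. In cells of these mice that have made Cre, the ribosomal protein Rpl10a carries an EGFP tag, and anti-EGFP beads pull down the tagged ribosomes with their messenger RNA. This is translating ribosome affinity purification (TRAP). A reporter of this kind also marks cells that made Cre only earlier in life, so the tagged population need not equal the cells that use Htr3a in the adult. The labels give no age beyond adult and do not state whether each replicate is its own animal, so p-values speak only of the spread among these samples, possibly a technical one. Unpurified cortex was not analysed here, and every comparison sets genes against one another within the libraries.

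Muscarinic receptors answer acetylcholine through G proteins. The receptors of Chrm1, Chrm3 and Chrm5 couple to Gq, which activates phospholipase C, releases calcium from internal stores and closes potassium channels, and so tends to excite a neuron. Those of Chrm2 and Chrm4 couple to Gi and Go, which inhibit adenylyl cyclase, open Kcnj potassium channels and close presynaptic calcium channels, and so tend to quiet it. In the cortex acetylcholine comes mainly from basal forebrain axons and from some local Vip interneurons.

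Mutagenesis has tied a few residues of muscarinic receptors to the choice of G protein. They lie near the end of the third intracellular loop, where it runs into the sixth transmembrane helix. The coding strand over this junction is shown for each gene because residues there are tied to the coupling by which the members are grouped. Sequences are 60 bases long, 5′ to 3′, from GENCODE M21 transcripts (build GRCm38), and capitals mark the 4 codons of those residues.
Chrm1 (Gq, chr19:8679007-8679066, plus strand): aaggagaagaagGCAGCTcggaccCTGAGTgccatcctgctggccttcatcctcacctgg
Chrm3 (Gq, chr13:9877490-9877549, minus strand): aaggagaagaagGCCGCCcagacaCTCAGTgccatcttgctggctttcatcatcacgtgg
Chrm5 (Gq, chr2:112479405-112479464, minus strand): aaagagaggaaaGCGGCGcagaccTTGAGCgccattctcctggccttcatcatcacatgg
Chrm2 (Gi, chr6:36524350-36524409, plus strand): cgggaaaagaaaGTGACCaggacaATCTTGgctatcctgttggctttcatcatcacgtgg
Chrm4 (Gi, chr2:91928428-91928487, plus strand): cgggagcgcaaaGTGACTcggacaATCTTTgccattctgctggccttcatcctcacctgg

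Chrm1 and Chrm3 differed at 3 of the 12 capital bases, Chrm1 and Chrm5 at 4, Chrm3 and Chrm5 at 5, and Chrm2 and Chrm4 at 2. Pairs from different classes differed at 7 to 9 of them. The windows were found by searching for the residues of either class at these codons. The separation by class therefore follows from the search and is not a result. These codons were chosen for their link to coupling. Over all 60 bases, capitals included, pairs differed at 9 to 14 within a class and at 15 to 22 between classes. Outside the capitals the classes overlapped. Chrm3 and Chrm5 differed at 14 of 60 bases, 5 of them capitals, and Chrm1 and Chrm4 at 15, 7 of them capitals. Other single stretches of the coding sequence were not compared. Over the whole coding sequence the classes were barely apart. Within a class 59.3% to 63.7% of aligned coding bases were identical, against 55.6% to 59.2% between classes. In all 5 genes the coding sequence lies in 1 exon.

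The genes differ in how much untranslated sequence the annotation gives them, which matters for every level below. Chrm1 (ENSMUSG00000032773.9) spans chromosome 19 from 8663789 to 8683587 with 6487 nt of merged exons, Chrm2 (ENSMUSG00000045613.9) chromosome 6 from 36388084 to 36528414 with 6053 nt, and Chrm3 (ENSMUSG00000046159.16) chromosome 13 from 9875486 to 10360847 with 6253 nt. Chrm4 (ENSMUSG00000040495.4) spans chromosome 2 from 91927249 to 91928688 and Chrm5 (ENSMUSG00000074939.3) chromosome 2 from 112479171 to 112480769, each as 1 exon, of 1440 and 1599 nt. These Chrm4 and Chrm5 models hold coding sequence only, whereas RefSeq on the same assembly carries the 3′ end of Chrm4 1147 nt further and that of Chrm5 438 nt further. Exons of other genes overlapped 5.07% of the Chrm1 exons, 2.35% of the Chrm2 exons and none of the others.

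The libraries held 14383545, 13951332 and 14461053 counts on genes in replicates 1, 2 and 3. Markers of GABAergic neurons were present, with 8 of 8 at 1 TPM or more in 3 of 3 libraries (TPM, counts corrected for exon length, with the same total in each library), and so were 5 of 5 markers each of Vip, Pvalb and Lamp5/Ndnf interneurons and 3 of 5 of Sst interneurons. Sst itself, at 8250 TPM, stood above Vip at 1042 and Pvalb at 88.1 TPM. By list median the order was another. The Sst markers were lowest of these lists at 36.3 TPM, against 595 for Vip, 219 for Lamp5/Ndnf and 88.1 for Pvalb interneurons. Excitatory markers were present too: 7 of 8 reached 1 TPM in 3 of 3 libraries, and their summed level ran from 2939 to 3381 TPM against 3902 to 4215 TPM for the GABAergic list. Most of the excitatory sum was Camk2a at 2317 to 2885 TPM, and the other 7 markers summed to 495 to 624 TPM. Glial markers met the same minimum, with 6 of 6 for astrocytes, 6 of 6 for oligodendrocytes and 3 of 4 for oligodendrocyte precursors. Astrocyte markers summed to 217 to 255 TPM, mostly Aldoc, and oligodendrocyte markers to 218 to 367 TPM. Microglia had 3 of 6, and endothelial and mural cells 2 of 8. Meeting this minimum therefore does not single out the tagged cells. Muscarinic receptors are used by both GABAergic and excitatory neurons. What part each of these, or glia, had in the values below was not tested. In such bulk RNA, fewer cells with a transcript and less transcript per cell cannot be told apart.

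Chrm1 was the most abundant member, followed by Chrm3, while Chrm5 was close to the limit of these libraries. Chrm1, the main Gq-coupled receptor of cortical pyramidal cells, had 1180, 1126 and 1320 counts in replicates 1, 2 and 3, or 66.0, 61.7 and 70.4 TPM (66.0 ± 4.38; SD, n = 3, as throughout). Its libraries lay close together, and its mean exceeded that of 81.6% of the 16652 genes with a length and a count. Chrm3, a Gq-coupled receptor best known from glands and smooth muscle and also used by neurons, had 562, 452 and 379 counts, or 32.6, 25.7 and 21.0 TPM (26.4 ± 5.85). Replicate 1 was highest and replicate 3 lowest, and no Chrm3 value reached the lowest value of Chrm1. Chrm5, a Gq-coupled receptor known from midbrain dopamine neurons and brain blood vessels, had 13, 12 and 5 counts, or 2.95, 2.67 and 1.08 TPM (2.23 ± 1.01). With so few counts the 95% Poisson interval of replicate 3 ran from 0.352 to 2.53 TPM and that of replicate 1 from 1.57 to 5.04 TPM, so its libraries overlapped. Such intervals cover counting error only.

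Both Gi-coupled genes were detected in every library at low counts. Chrm2, the receptor that slows the heart and that also sits on presynaptic terminals, had 73, 98 and 88 counts, or 4.38, 5.75 and 5.03 TPM (5.05 ± 0.689). Chrm4, which is abundant in striatal projection neurons and also acts as an autoreceptor, had 53, 55 and 68 counts, or 13.4, 13.6 and 16.3 TPM (14.4 ± 1.67). Chrm4 thus had fewer counts than Chrm2 in every library and a higher TPM in every library.

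**Figure D1:**
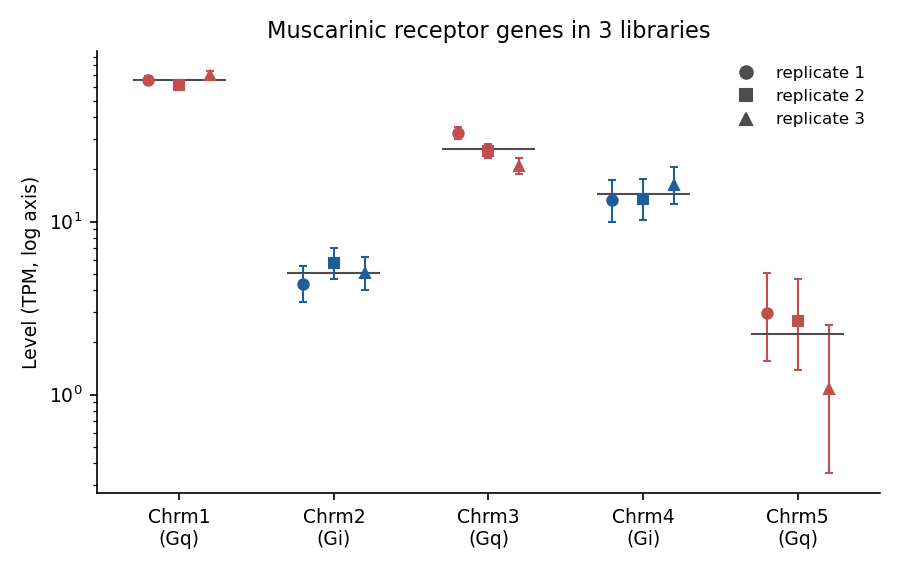
Level of each muscarinic receptor gene (TPM, log axis) in the 3 libraries, with exact 95% Poisson intervals for counting error as bars, the mean as a horizontal line, Gq-coupled genes in red and Gi-coupled genes in blue. The order Chrm1, Chrm3, Chrm4, Chrm2, Chrm5 is the same in each library. On this log axis Chrm5 has the widest intervals, from 0.352 to 2.53 TPM in replicate 3.

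In TPM the order Chrm1, Chrm3, Chrm4, Chrm2, Chrm5 held in 3 of 3 libraries. Each pair was tested in a limma fit of all genes against the lower-numbered member, on the log2(TPM + 0.1) scale and adjusted over 14313 genes, and 10 of 10 pairs passed the threshold of 0.05. That count says little about these genes in particular, since 88.1% of all genes differed from Chrm1 in the same fit, 85.6% from Chrm2, 76.7% from Chrm3 and 83.2% from Chrm4. The 10 pairs also share genes and are not independent.

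Chrm1 stood 2.53-fold above Chrm3 (log2 difference 1.34, SD 0.37; limma, adjusted p = 0.00296), with single libraries at log2 differences of Chrm3 minus Chrm1 of -1.01, -1.26 and -1.74. It stood 4.57-fold above Chrm4 (log2 difference 2.19, SD 0.10; limma, adjusted p = 0.000237). It stood 12.9-fold above Chrm2 (3.69, SD 0.26; limma, adjusted p = 0.000138) and 30.7-fold above Chrm5 (4.94, SD 0.83; limma, adjusted p = 0.000311). Chrm1 was thus the higher member in 3 of 3 libraries in each of its 4 pairs, and these 4 calls held under every alternative that could be computed. Only the sizes moved with gene length. With coding length Chrm4 minus Chrm1 was -4.39 and Chrm5 minus Chrm1 -6.97, and with the longest transcript Chrm3 minus Chrm1 was -0.86.

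Chrm3 stood 5.09-fold above Chrm2 (log2 difference 2.35, SD 0.45; limma, adjusted p = 0.000186) and 12.1-fold above Chrm5 (3.60, SD 0.49; limma, adjusted p = 0.000212). Its lead over its neighbour Chrm4 was 1.80-fold and less firm (0.85, SD 0.47; limma, adjusted p = 0.0345). The log2 differences of Chrm4 minus Chrm3 were -1.28, -0.92 and -0.36, and the 95% interval of the mean from their spread alone ran from -2.01 to 0.30. That call was lost without replicate 1 (-0.64; limma, adjusted p = 0.0577), without replicate 2 (-0.82; limma, adjusted p = 0.236) and without moderation (limma, adjusted p = 0.116). With unshared exon length the difference stayed at -0.85. The pair lay further apart when a single transcript set the length (-1.38 for the longest), and reached -1.69 with RefSeq 3′ ends, -2.64 with coding length and -2.94 with no length correction.

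Chrm2 and Chrm4, the Gi-coupled members, changed places with the gene length used. With merged exons Chrm4 stood 2.82-fold above Chrm2 (log2 difference 1.50, SD 0.24; limma, adjusted p = 0.000699). Per library the plain ratio of the TPM values was 3.05, 2.36 and 3.25. With the 3′ ends of the 5 genes carried to the RefSeq gene end, an alternative chosen after seeing the annotation, the ratio was 1.76, 1.36 and 1.87 (log2 difference 0.71; limma, adjusted p = 0.0180). With coding lengths it was 0.706, 0.546 and 0.752 (log2 difference -0.58; limma, adjusted p = 0.0346). Without a length correction it was 0.726, 0.561 and 0.773 (-0.54; limma, adjusted p = 0.0457). Each setting gave 1 direction in 3 of 3 libraries, and the settings opposed each other. Which gene models the authors counted over is not given in the sources used here, and which of these genes was higher per transcript cannot be told from the counts.

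**Figure D2:**
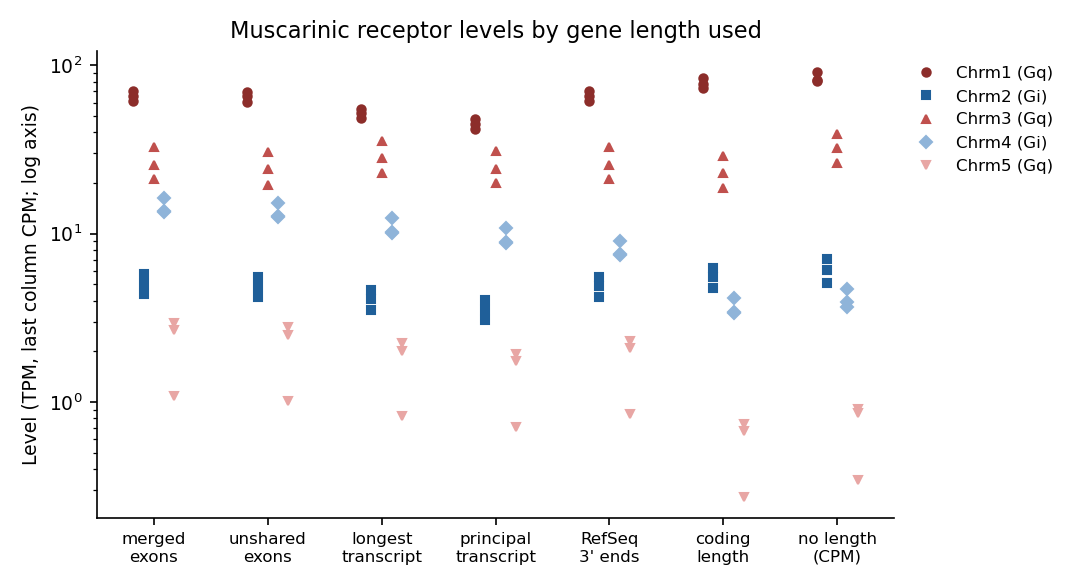
Level of each muscarinic receptor gene in the 3 libraries (points) for 7 choices of gene length, in TPM except for the last column, which is in counts scaled to library size (CPM), on a log axis. Chrm1, Chrm3 and Chrm5 keep their places under each choice, while Chrm4 lies above Chrm2 with merged exons (14.4 against 5.05 TPM on average) and below it with coding length (3.65 against 5.52 TPM) or no length (4.11 against 6.06 CPM).

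Chrm5 was the lowest member under each length tried. It stood 6.72-fold below Chrm4 (log2 difference of Chrm5 minus Chrm4 -2.75, SD 0.91; limma, adjusted p = 0.00154), a call lost without moderation (limma, adjusted p = 0.0522). Against Chrm2, its nearest neighbour, it stood 2.38-fold lower (-1.25, SD 0.80; limma, adjusted p = 0.0123). Single libraries gave -0.55, -1.08 and -2.12 for Chrm5 minus Chrm2, and the 95% interval of the mean from their spread alone ran from -3.23 to 0.73. That call was lost without replicate 3, the library with 5 Chrm5 counts (-0.82; limma, adjusted p = 0.0589), and without moderation (limma, adjusted p = 0.136). With coding length the difference was -3.16, and that of Chrm5 minus Chrm3 was -5.22.

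Set by coupling, Gq members made up most of the family. Chrm1, Chrm3 and Chrm5 together had 1755, 1590 and 1704 counts, and Chrm2 and Chrm4 together 126, 153 and 156. The Gq share of muscarinic counts was 93.3% (Wilson 95% interval 92.1 to 94.3), 91.2% (89.8 to 92.5) and 91.6% (90.3 to 92.8) in replicates 1, 2 and 3, or 92.0% ± 1.11. In TPM, which corrects for length, the Gq sum was 102, 90.0 and 92.5 and the Gi sum 17.7, 19.3 and 21.4. The Gq sum was therefore 5.73, 4.66 and 4.33 times the Gi sum, and the sums did not overlap (mean log2 ratio 2.28 ± 0.21). The sums are a description and were not tested.

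The size of the Gq lead rested on Chrm1 and on length. Chrm1 alone held 57.9% ± 3.50 of the family's TPM, Chrm3 23.1% ± 4.47, Chrm4 12.7% ± 1.59, Chrm2 4.45% ± 0.797 and Chrm5 1.95% ± 0.869. In raw counts, with no length correction, the mean shares were 66.1% for Chrm1, 25.4% for Chrm3, 4.74% for Chrm2, 3.21% for Chrm4 and 0.549% for Chrm5, with Chrm2 above Chrm4. With coding lengths the Gq sum was 13.3, 9.96 and 10.6 times the Gi sum. A mean of log2 levels, which gives Chrm5 the same weight as Chrm1, left a log2 difference between the classes of 0.85. Coupling class and level did not run in parallel, since the highest and the lowest member were both Gq-coupled.

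**Figure D3:**
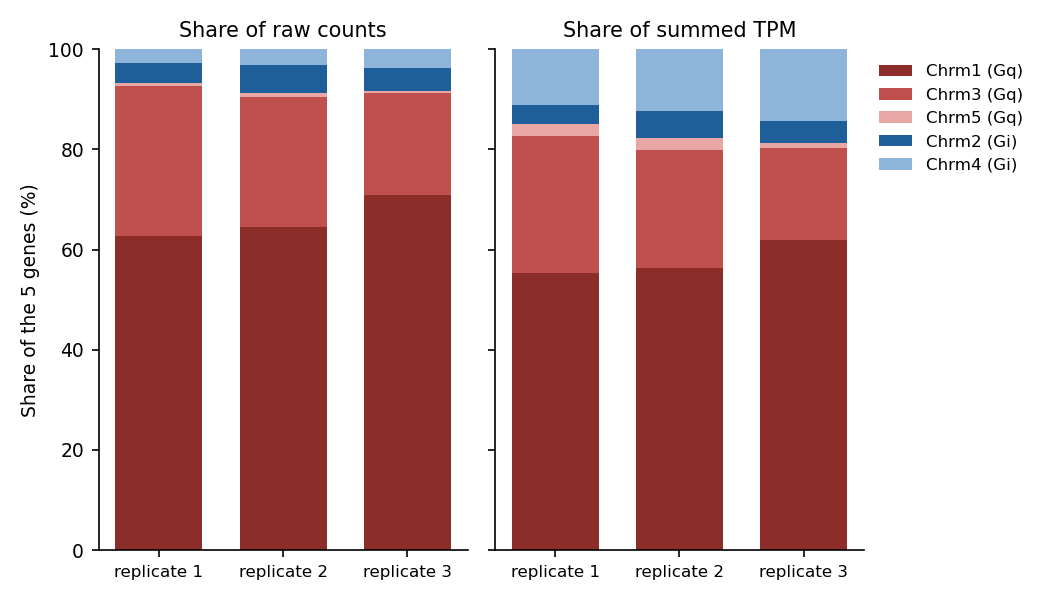
Share of each muscarinic receptor gene (percent of the 5 genes) in raw counts (left) and in summed TPM (right) for replicates 1 to 3, Gq-coupled genes in reds and Gi-coupled genes in blues. The Gq-coupled share lies between 91.2% and 93.3% in counts and between 81.2% and 85.1% in TPM.

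Chrm1 and Chrm3 varied between libraries beyond counting error, and no test compared the members with one another. Counts were compared with those that the library sizes predict, after scaling by TMM (trimmed mean of M-values), and a chi-square test called 74.3% of 12949 genes averaging 1 CPM or more as varying beyond counting error. Among the 4 muscarinic genes that met this minimum, Chrm3 varied (adjusted p = 2.01e-11), with scaled levels of 41.0, 31.7 and 25.6 CPM and a highest value 1.60 times the lowest. Chrm1 also varied, though its highest value was only 1.13 times its lowest (scaled levels 86.0, 78.9 and 89.0 CPM; adjusted p = 0.0150). Its call was lost without replicate 2 (adjusted p = 0.542) or replicate 3 (adjusted p = 0.0683), whereas that of Chrm3 held without each replicate. Chrm2 and Chrm4 did not pass (adjusted p = 0.277 and 0.568), although their highest values were 1.29 and 1.19 times their lowest, both wider than for Chrm1. They had 53 to 98 counts in a library against 1126 to 1320 for Chrm1, so changes of that size were not detectable at their depth. Chrm5, at a mean of 0.703 CPM, was not tested.

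Chrm3 was lowest in replicate 3, where Chrm1 was highest. The share of Chrm1 in the family's TPM was accordingly 55.3%, 56.4% and 61.9% and that of Chrm3 27.3%, 23.5% and 18.4%. The family's total was 119, 109 and 114 TPM. Sums of markers were also highest in replicate 1 for every marker list except those of Lamp5/Ndnf and Pvalb interneurons. This was therefore not particular to a cell type. GABAergic markers summed to 4215, 4134 and 3902 TPM in replicates 1, 2 and 3, and Sst interneuron markers to 9335, 8818 and 8143 TPM. The 6 oligodendrocyte markers, of which 3 varied beyond counting error and none was at 0, summed to 367, 249 and 218 TPM in replicates 1, 2 and 3. The 3 markers of cholinergic neurons summed to 46.6, 27.3 and 28.7 TPM. Among them Slc5a7 stood at 26.9, 13.9 and 10.7 TPM, while Slc18a3 was nearly level. Some local Vip interneurons also make acetylcholine, and which cells these 3 transcripts came from was not tested. The part of any of these groups of cells in the Chrm3 values was not tested.

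Among receptors for small transmitters the muscarinic genes were spread over most of the range. A list of 45 other G protein-coupled receptors for serotonin, noradrenaline, dopamine, histamine, adenosine, GABA, glutamate and endocannabinoids was set beside them. Ranked by mean TPM among these 50 genes, Chrm1 came 10th, Chrm3 17th, Chrm4 23rd, Chrm2 32nd and Chrm5 37th. The places of Chrm2 and Chrm4 turned with coding length, which put Chrm1 8th, Chrm3 15th, Chrm2 29th, Chrm4 32nd and Chrm5 39th. RefSeq 3′ ends, applied to the muscarinic genes alone, put Chrm4 28th and Chrm5 38th. The list was led by the cannabinoid receptor Cnr1 at 737 ± 171 TPM, the GABA-B subunit Gabbr2 at 310 ± 42.1 TPM and its partner Gabbr1 at 272 ± 13.5 TPM, and 3 of its 45 genes had no count. Chrm1 was the highest of the muscarinic genes, and 9 receptors lay above it.

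**Figure D4:**
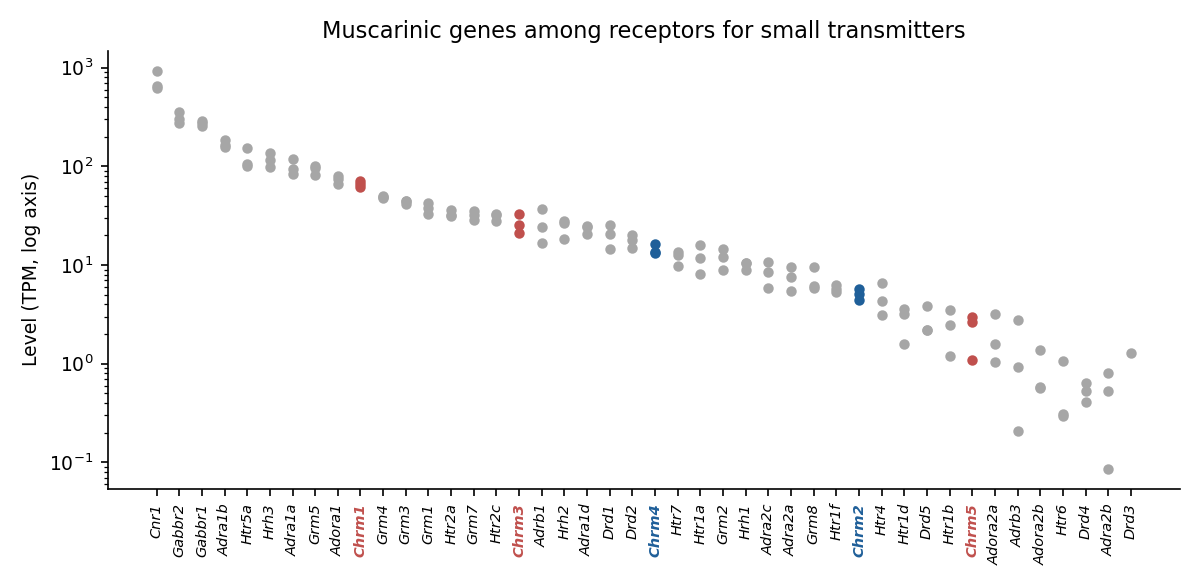
Level (TPM, log axis) of 44 receptor genes with a mean of at least 0.4 TPM, ordered by mean, with 1 point per library (2 values of 0, both of Drd3, are not drawn). Gq-coupled muscarinic genes are in red, Gi-coupled ones in blue and other receptors in grey, and Chrm1 at 66.0 TPM and Chrm5 at 2.23 TPM mark the span of the family.

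By level over the 3 libraries (Euclidean distance in log2(TPM + 0.1)), the 3 nearest of the 45 receptors were found for each muscarinic gene with merged exon lengths. The nearest to Chrm1 was Adora1, the Gi-coupled adenosine receptor, at 66.7, 74.6 and 80.8 TPM (distance 0.338), then the glutamate receptors Grm4 and Grm5 (0.749 and 0.909). The nearest to Chrm3 was the histamine receptor Hrh2 at 28.2, 26.7 and 18.5 TPM (0.283), then Grm7 and the serotonin receptor Htr2c (0.546 and 0.636). Hrh2, like Chrm3, was lowest in replicate 3, a likeness that the choice by distance over the 3 libraries favours. Chrm4 lay nearest to the serotonin receptor Htr7 at 9.82, 12.5 and 13.6 TPM (0.522), then Grm2 and Htr1a (0.620 and 0.736), and Chrm2 to the serotonin receptor Htr1f at 6.33, 5.37 and 5.77 TPM (0.566), then Htr4 and the adrenergic receptor Adra2a (0.996 and 1.07). Nearest to Chrm5 was the dopamine receptor Drd5 at 2.19, 3.83 and 2.20 TPM (1.16), then Adora2a and Htr1d (1.38 and 1.86). The neighbours moved with gene length. With coding length 0 of its 3 neighbours stayed among the 3 nearest to Chrm4, whose level was then 3.65 TPM, and the same held for Chrm2 and Chrm5. With RefSeq 3′ ends Chrm4 was at 8.03 TPM and again shared 0 of 3. These distances describe levels in 3 libraries and carry no test.

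Genes that make or load acetylcholine were present at levels below Chrm1. Choline acetyltransferase Chat, which makes acetylcholine, had 147, 76 and 134 counts, or 11.3, 5.74 and 9.86 TPM (8.98 ± 2.90). The vesicular transporter Slc18a3 stood at 8.27, 7.66 and 8.18 TPM (8.04 ± 0.330), and the choline transporter Slc5a7 at 26.9, 13.9 and 10.7 TPM (17.2 ± 8.62). All 3 were lower than Chrm1 in the limma fit with Chrm1 as reference, in which 72.3% of all genes were lower than Chrm1 and 15.7% higher. Slc5a7 was highest in replicate 1, as Chrm3 was, and Slc18a3 was nearly level.

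Of the 4 genes of acetylcholine breakdown, 3 could be tested and were lower than Chrm1. The esterase Ache stood at 10.6, 18.4 and 25.4 TPM (18.1 ± 7.40) and its membrane anchor Prima1 at 2.90, 7.09 and 8.84 TPM (6.28 ± 3.06), both lowest in replicate 1. Butyrylcholinesterase Bche stood at 2.04 ± 0.214 TPM. The collagen tail gene Colq had 0, 8 and 0 counts, and a count of 0 allows up to 3 counts, or 0.209 CPM in replicate 1 and 0.207 CPM in replicate 3.

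Transducers of the Gq arm ranged from far above the receptors to nearly no counts. Of 18 genes, 17 were tested: 10 were higher than Chrm1 and 7 lower, against 15.7% and 72.3% of all genes in that fit, with a list median of 103 TPM against 16.9 TPM over all genes in the fit. The protein kinase C gene Prkcb led at 1304 ± 255 TPM. The G protein subunit Gnaq stood at 355 ± 19.5 TPM, and Gna15, a Gq subunit of blood cells, was lowest at 0.170 ± 0.294 TPM and was not tested. Gnaq was 5.38-fold above Chrm1 (limma, adjusted p = 0.000217). Chrm1 was in turn 79.7-fold above the phospholipase Plcb3 (limma, fold on the log2(TPM + 0.1) scale), while Plcb1 at 254 ± 34.4 TPM exceeded Chrm1.

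Transducers of the Gi arm spanned a similar range. Of 20 genes tested, 8 were higher than Chrm1, 7 lower and 5 not called, again against 15.7% higher and 72.3% lower among all genes. The list median was 60.8 TPM against 16.9 TPM over all genes in the fit. The G protein subunits Gnai1 and Gnao1 led at 2055 ± 200.0 and 1431 ± 229 TPM, followed by the adenylyl cyclase Adcy1 at 282 ± 23.9 TPM, and the cyclase Adcy4 was lowest at 0.253 ± 0.219 TPM. Gnai1 was 31.0-fold above Chrm1 (limma, adjusted p = 0.000120). Of the Kcnj channels that Gi-coupled receptors open, Kcnj3 stood at 181 ± 20.7 TPM, above Chrm1. Kcnj9 and Kcnj6 stood at 53.6 ± 10.2 and 49.8 ± 6.17 TPM and were not called different from Chrm1 (limma, adjusted p = 0.143 and 0.0580), and Kcnj5 stood at 1.15 ± 0.739 TPM. Many other receptors use the same transducers, and the lists do not single out muscarinic signalling.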

How the data were processed

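The authors deposited raw, unscaled counts by gene symbol, with a separate file for each of the 3 libraries. The submitters' processing notes name STAR 2.0.0e, HTSeq and build mm10, with no role for each. Neither annotation nor strand setting is stated there, and where genes overlap on opposite strands their reads are not separable here. The 6 lines naming no gene held 25.1% to 28.8% of records and were left out.

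Exon lengths came from GENCODE M21 (GRCm38): 23155 symbols matched directly, 735 through an older name, and 8641 had no length. TPM was computed here from the counts and merged exon lengths. Within-library differences of log2(TPM + 0.1) between every gene with at least 10 counts and a reference member were tested with limma 3.58.1 (moderated, two-sided, Benjamini-Hochberg over all genes, threshold 0.05); fold changes are on that scale, which understates those of low genes. Variation was tested by chi-square with TMM factors from edgeR 4.0.16, and DESeq2 1.42.0 size factors as an alternative. Both were tested on simulated data. R 4.3.3, Python 3.11.15 and Biopython 1.88 were used. Coding sequences were paired by codon through a global alignment of their translations.

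All 5 members were described. From each pathway list the 3 highest and the lowest genes were named, with every gene of the acetylcholine lists and the 3 receptors nearest in level to each member; Gabbr1 and its peers are the 3 highest of their list. Some genes that this rule selects are not reported here. Plcb1, Plcb3 and the Kcnj genes fall outside the rule and were named after their values were seen. The members and lists were chosen with earlier results of these data known.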

Additional observations from a re-analysis of the deposited data

How the results depend on the processing

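Of 136 values of the 10 pair differences under 14 alternatives, 128 kept direction and side of the threshold, 6 lost the call and 2 reversed. Those reversed were Chrm4 minus Chrm2, from 1.50 to -0.54 without a length correction and to -0.58 with coding length. The 10 called pairs became 6 of 6 with a minimum mean of 1 CPM, which leaves Chrm5 out, 7 without moderation, and 9 without each replicate in turn. The log2 ratio of Gq over Gi sums of 2.28 was 3.54 without a length correction, 3.49 with coding length, 2.87 with RefSeq 3′ ends and 0.85 as a mean of log2 levels, and between 2.17 and 2.37 without single replicates. The Gq share of counts then ran from 91.4% to 92.5%. The 9620 genes varying between libraries became 5542 without replicate 1, and up to 8071 without another replicate, with 2 libraries left in the test, and 9673 with DESeq2 size factors. With 1 group, samples could not be paired across conditions, and genes were compared within each library. Depth limits Chrm5 most, at 5 to 13 counts in a library.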

Other observations

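Regulators of receptor signalling were abundant in the same libraries. All 11 genes of this list reached 1 TPM in 3 of 3 libraries, and 6 were higher than Chrm1, 3 lower and 2 not called (limma), against 15.7% higher and 72.3% lower among all genes in that fit. The list median was 125 TPM against 16.9 TPM over all genes. The list was led by Rgs4, Rgs8 and Rgs7, which speed the shut-off of G proteins, at 433 ± 79.1, 331 ± 55.4 and 202 ± 15.3 TPM. Rgs4 was lowest in replicate 1, at 342 TPM against 488 and 469 TPM, and Rgs8 was highest there, at 395 TPM against 298 and 301 TPM. The receptor kinase Grk6 was lowest at 14.7 ± 3.83 TPM. All 11 genes varied between libraries beyond counting error (chi-square with adjusted p under 0.05), against 74.3% of all genes tested. This test detects smaller changes at higher counts, and the list median lay above that of all genes. The 11 of 11 therefore does not show unusual variation of these regulators.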
